A study of Mus musculus and Acomys cahirinus with 2 samples.

Results

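Cyp1a1, Cyp1b1, Cyp2f2, Cyp2a5, Ahr, Ahrr, Tiparp and Nqo1 are the aryl hydrocarbon receptor, regulators and targets of it, and cytochrome P450 enzymes that act on foreign compounds. They were described in ear skin of 2 species, with the members chosen by symbol and with case ignored. All 8 symbols were present once in each gene list, among 24509 genes of the Acomys list and 28692 genes of the Mus list, of which 15688 symbols stood in both. The members had been picked because earlier results of these same data showed them to differ, so all values here are descriptions and no test was made on them.

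The study measured adult ear skin of the spiny mouse Acomys cahirinus and of the house mouse Mus musculus by droplet single-cell RNA sequencing of transcript 3′ ends, with 1 library per species. Both libraries carried the label day 0, and the series title calls the ears injured. No strain, sex, number of animals or treatment is given in the labels, so the species, the animal and the preparation cannot be told apart. The Acomys library held 71042559 unique molecular identifiers (UMIs, each a counted molecule) and the Mus library 130039670, and 4603 Acomys cells and 6556 Mus cells were kept, with medians of 7557 and 11784 UMIs per cell. Between the libraries, 31 cell barcodes were shared. Levels are given as CPM, the UMIs of a gene per 1000000 UMIs, counted over the symbols of both lists, and intervals are exact 95% counting intervals that leave out differences between animals.

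The aryl hydrocarbon receptor is a transcription factor of the cytosol that enters the nucleus when it binds a planar ligand, pairs there with Arnt and binds a short DNA element, the xenobiotic response element. Cyp1a1, Cyp1b1, Tiparp, Ahrr and Nqo1 are known targets of it, and Ahrr and Tiparp in turn dampen it. In skin the receptor is known for responses to pollutants, to products of light and to microbial tryptophan metabolites, and its strong activation in people gives chloracne, a disease of the sebaceous follicle. Cyp2f2 and Cyp2a5 are P450 enzymes known mainly from mouse lung, nose and liver.

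The mouse promoters with the core of the response element are shown because these letters are what the receptor pairs with Arnt to bind. Sequences are from RefSeq on GRCm38.p6, run 5′ to 3′ on the strand of the gene over the 250 bases before its start, and have GCGTG or its reverse complement CACGC in capitals. Both strands were searched, and 7 of the 8 members had a promoter to search, all but Ahr.
Cyp1a1, chr9:57697363-57697612, plus strand: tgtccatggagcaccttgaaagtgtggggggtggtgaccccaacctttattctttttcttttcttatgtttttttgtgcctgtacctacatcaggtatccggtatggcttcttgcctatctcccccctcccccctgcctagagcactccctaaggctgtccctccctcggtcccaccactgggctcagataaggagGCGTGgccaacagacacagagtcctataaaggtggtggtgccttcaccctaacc
Cyp1b1, chr17:79715062-79715311, minus strand: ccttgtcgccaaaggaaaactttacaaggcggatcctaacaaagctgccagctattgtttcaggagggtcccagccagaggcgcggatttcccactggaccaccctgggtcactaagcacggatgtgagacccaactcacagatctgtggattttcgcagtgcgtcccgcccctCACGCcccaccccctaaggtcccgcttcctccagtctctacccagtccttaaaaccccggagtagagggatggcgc
Ahrr, chr13:74292332-74292581, minus strand: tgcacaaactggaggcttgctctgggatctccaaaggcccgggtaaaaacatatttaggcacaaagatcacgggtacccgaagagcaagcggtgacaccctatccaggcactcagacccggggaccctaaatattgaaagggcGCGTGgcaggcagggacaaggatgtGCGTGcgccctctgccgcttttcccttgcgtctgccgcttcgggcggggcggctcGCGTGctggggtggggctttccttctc
Tiparp, chr3:65528197-65528446, plus strand: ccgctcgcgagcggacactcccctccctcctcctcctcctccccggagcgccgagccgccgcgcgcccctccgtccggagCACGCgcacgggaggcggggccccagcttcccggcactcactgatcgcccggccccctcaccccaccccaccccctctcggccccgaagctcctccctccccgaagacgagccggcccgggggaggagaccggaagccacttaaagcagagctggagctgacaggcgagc
The motif stood once in the Cyp1a1, Cyp1b1 and Tiparp windows and 3 times in the Ahrr window, and it was absent from the windows of Nqo1, Cyp2f2 and Cyp2a5. Of all 32851 mouse promoters of the same length 28.2% held it, and 8.63% held it 2 times or more. The antioxidant element TGACNNNGC, which NRF2 binds, was in none of the 7 windows and in 10.2% of all promoters. A match is a run of letters and not a shown binding site, and the Acomys promoters were not analysed here.

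Cells were grouped by clustering without the 8 members, and clusters were named from marker lists. The basal-like class held 1481 Acomys and 3354 Mus cells, the suprabasal-like class 1123 and 1498, the upper follicle-like class 309 and 184, the lower follicle-like class 644 and 693, and the sebocyte-like class 103 and 217. They are called basal, suprabasal, upper follicle, lower follicle and sebocyte cells from here on. A further 41 Acomys cells and no Mus cells were inner root sheath-like, and 712 Acomys and 485 Mus cells stayed unnamed. The name upper follicle rested in Acomys on 3 markers (Krt79, Krt17, Cst6) and in Mus on 9, and the 10 upper follicle markers, 8 of them in the Acomys list, summed to 52312 CPM in Acomys, against 185241 CPM in Mus. In the same Acomys cells the suprabasal markers summed higher, to 57302 CPM. Sebocyte markers, which share Krt79 with the upper follicle list, summed to 14083 CPM in these Acomys cells and 15603 CPM in the Mus cells. Krt79 alone gave 13646 CPM of the Acomys sum. Acomys cluster 9 (201 cells) stayed unnamed although its upper follicle markers summed to 55286 CPM. The basal classes were also unlike. Basal markers summed to 20216 CPM and suprabasal markers to 22042 CPM in Acomys basal cells, against 61226 and 14702 CPM in Mus ones. In Acomys basal cluster 2 these sums were 17477 and 19779 CPM. Cyp1a1, Cyp2a5 and Cyp2f2 were themselves among the 10 leading genes of the Acomys upper follicle cluster, as a description of a cluster and not a test.

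Over all shared genes the libraries differed widely, which sets the scale for any single gene. Among genes of at least 10 CPM in either library over the epithelial classes, 13.6% were higher in Acomys by 2-fold or more and 38.1% were lower by as much, with a median log2 ratio of -0.44. The 2 gene lists come from different annotations, and how far a gene's 3′ end is annotated in each was not tested. Of 7 members at 10 CPM, 5 were at least 2-fold higher and 2 lower in Acomys, a count that the choice of members fixed.

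Cyp1a1, the enzyme that oxidises polycyclic aromatic compounds and the most used readout of receptor activity, was high in Acomys upper follicle cells, sebocytes and part of the basal cells and close to the floor in most Mus classes. The mouse gene is ENSMUSG00000032315 at chr9:57687928-57703824 on the plus strand in GENCODE M21 on GRCm38, the source of the gene positions given here, and this span begins upstream of the RefSeq start used above. Over all cells 14590 Acomys UMIs gave 552 CPM, against 47 Mus UMIs and 0.840 CPM, a ratio of 658 (494 to 895). Upper follicle cells held 2124 CPM in Acomys, against 22.7 CPM in Mus, a ratio of 93.7 (63.3 to 145). Sebocytes held 1016 CPM in Acomys, against 5.31 CPM in Mus, a ratio of 191 (103 to 400). In basal cells the level was 627 CPM in Acomys, against 0.241 CPM in Mus, where it rested on 6 UMIs. The ratio was 2606 (1196 to 7104), between basal classes of unlike marker sums. Suprabasal cells had 80.7 CPM in Acomys, against 0.259 CPM in Mus, from 5 UMIs. Lower follicle cells had 103 CPM in Acomys and no UMI in Mus, at least 125-fold higher in Acomys against the level of 3 UMIs in the Mus class. The Acomys suprabasal and lower follicle levels were below the 318 CPM of the free RNA in that library. Among the named classes of both libraries the upper follicle was highest and the sebocytes came next. These neighbours differed beyond counting error, by 2.09-fold (1.93 to 2.27) in Acomys and 4.27-fold (1.98 to 9.96) in Mus. The Mus order rested on few cells, with 25 UMIs in 9 upper follicle cells and 10 UMIs in 6 sebocytes. At a clustering resolution of 2, which cuts finer than the value of 1 used here, the Mus upper follicle class took in 305 cells and held 7.57 CPM, and at the coarser resolution of 0.5 the Acomys sebocyte class narrowed to 38 cells and held 596 CPM. Counted over all genes of its own list, the Acomys basal level was 403 CPM.

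**Figure D1:**
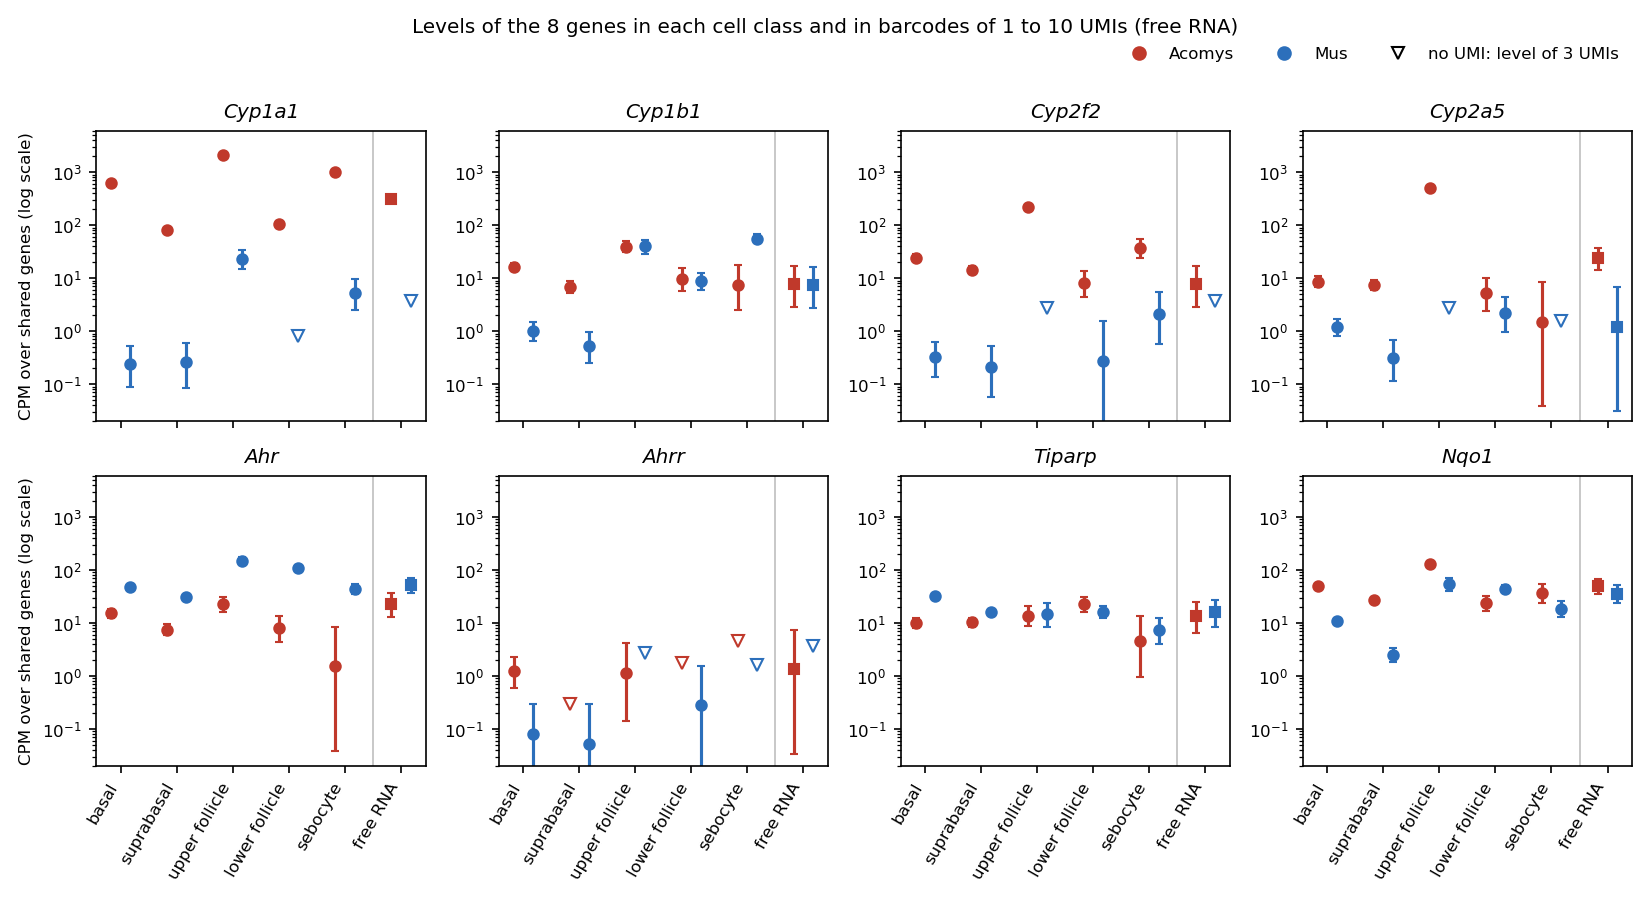
Level of each member (CPM over shared genes, log scale) in the 5 classes of both libraries and, right of the grey line, in barcodes of 1 to 10 UMIs; points are Acomys left and Mus right, bars are 95% counting intervals and open triangles mark no UMI. Cyp1a1 lies near 2124 CPM in Acomys upper follicle cells and 22.7 CPM in Mus ones, while Ahr lies lower in Acomys in each class.

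RNA free in the suspension was read from barcodes of 1 to 10 UMIs, which hold no whole cell. Cyp1a1 stood there at 318 CPM in Acomys (279 to 360, from 241 UMIs), against no UMI in Mus, where 3 UMIs would be 3.68 CPM. Of the 24 Acomys clusters, 7 lay above that interval and 14 below it. The 7 were the upper follicle cluster, basal cluster 2 at 1515 CPM, the cycling basal cluster 11 at 789 CPM, the sebocyte cluster and 3 unnamed clusters at 615 to 1519 CPM. Suprabasal and lower follicle cells lay below the free RNA, as did basal cluster 3 at 79.6 CPM. The T cell cluster (36 cells, 434 CPM) and an endothelial cluster (25 cells, 431 CPM), both outside the epithelium, had intervals that overlapped that of the free RNA. Barcodes of more than 100 and up to 500 UMIs held Cyp1a1 at 472 CPM in Acomys (461 to 484) and 1.12 CPM in Mus. Clusters were not counted against this level.

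With each cell thinned to 2500 UMIs, 89.3% of Acomys upper follicle cells (85.3 to 92.5) held a Cyp1a1 UMI, against 2.17% of Mus ones (0.595 to 5.47). The share was 63.1% of sebocytes in Acomys and 0.922% in Mus, and 40.9% of basal cells in Acomys and 0.0298% in Mus. Unthinned, the shares in Acomys were 97.7% of upper follicle, 90.3% of sebocyte and 60.2% of basal cells, at median depths of 7735, 9238 and 8100 UMIs. Acomys fibroblasts gave 22.2% (10.1 to 39.2) thinned at a median of 3655 UMIs, and the T cell cluster 19.4% at 3800 UMIs. The thinned shares of 12.9% in suprabasal and 16.8% in lower follicle cells were no higher than these, and no expression was read from them. The T cell cluster stood near the free RNA level, and its own Cyp1a1 expression was not tested. Single Acomys upper follicle cells reached 32 Cyp1a1 UMIs. In Mus the 25 upper follicle UMIs lay in 9 of 184 cells, at most 4 in a cell.

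**Figure D2:**
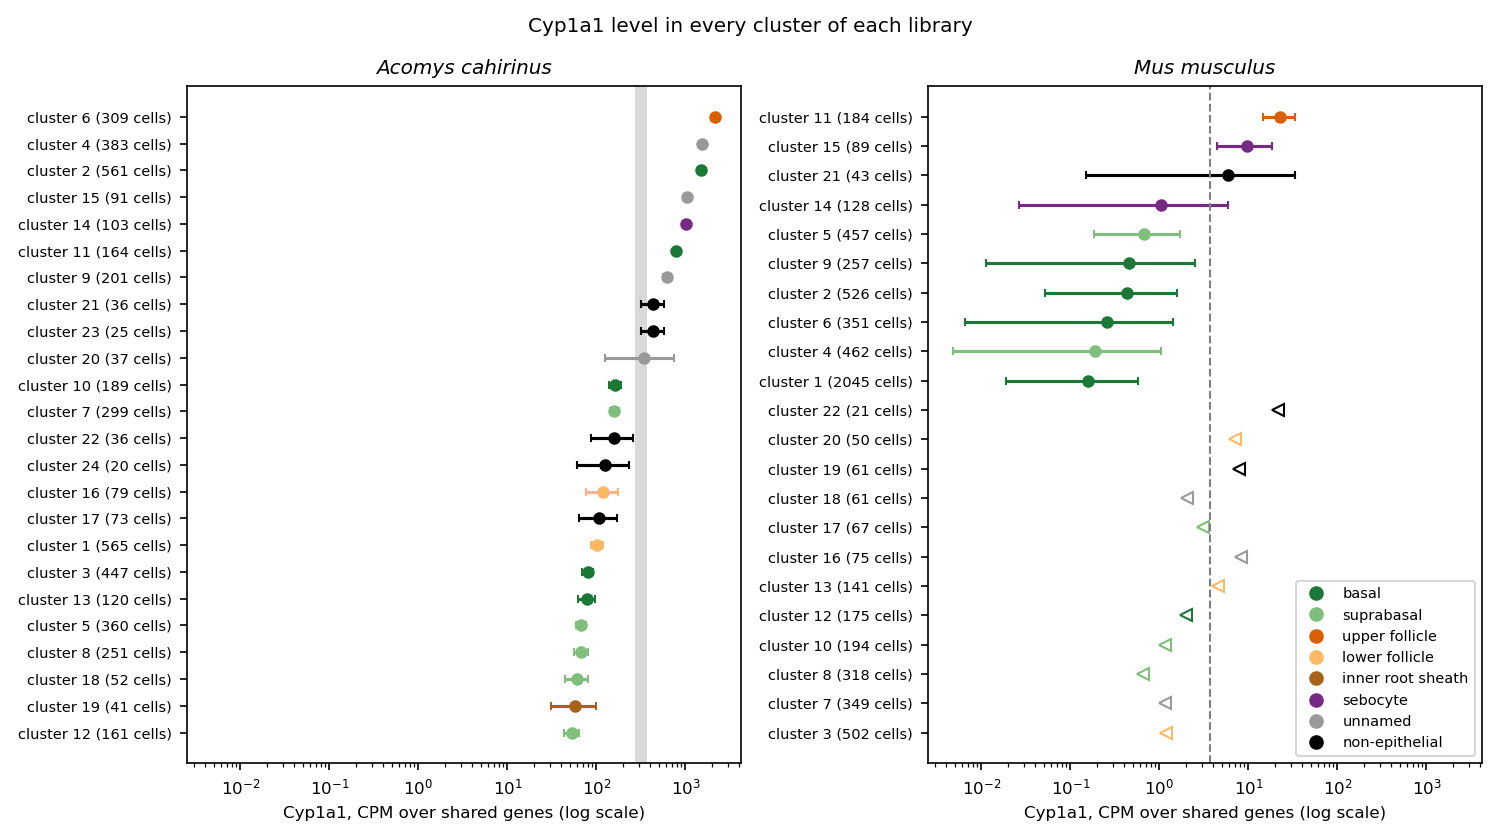
Cyp1a1 level (CPM over shared genes, log scale) in each cluster of Acomys, left, and Mus, right, coloured by class, with 95% counting intervals; open triangles mark clusters with no UMI at the level of 3 UMIs. The grey band is the interval of free RNA in Acomys and the dashed line the level of 3 UMIs in Mus free RNA; 7 Acomys clusters lie right of the band, and Mus cluster 11, the upper follicle, is the highest at 22.7 CPM.

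Cyp1b1, a relative that oxidises steroids and polycyclic compounds (ENSMUSG00000024087, chr17:79701537-79715061, minus strand), differed between libraries by class and not in 1 direction. Basal cells held 16.2 CPM in Acomys, against 1.003 CPM in Mus, a ratio of 16.2 (10.5 to 25.9), and suprabasal cells 6.89 and 0.518 CPM, a ratio of 13.3 (6.82 to 29.0). Upper follicle cells held 39.4 CPM in Acomys, against 39.9 CPM in Mus, a ratio of 0.988 (0.667 to 1.48), and lower follicle cells 9.87 and 8.83 CPM. The upper follicle ratio depends on where the Mus class is drawn, since at resolution 2 it held 42.5 CPM in Acomys and 14.2 CPM in Mus over 278 and 305 cells. Sebocytes held 7.60 CPM in Acomys, from 5 UMIs, against 55.8 CPM in Mus, and the ratio was 0.136 (0.0433 to 0.328). Both Mus sebocyte clusters were high, at 57.7 and 53.8 CPM. The 14 sebocyte markers summed to 9126 CPM in the Acomys class and 21935 CPM in the Mus one, and their part in the result was not tested. Free RNA held 7.91 CPM in Acomys (2.90 to 17.2, from 6 UMIs), against 7.37 CPM in Mus. The Acomys suprabasal, lower follicle and sebocyte levels were near it, and the Acomys basal level also lay within its interval.

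Cyp2a5, known in mice for coumarin and nicotine oxidation (ENSMUSG00000005547, chr7:26835305-26843548, plus strand), was high in 1 Acomys class, which is the single cluster 6. These upper follicle cells held 506 CPM, from 885 UMIs, and Mus ones no UMI, at least 186-fold higher in Acomys against 3 UMIs in the Mus class. Elsewhere Acomys classes held 1.52 to 17.8 CPM, below or within the free RNA interval of 14.1 to 37.5 CPM, and Mus cells held 47 UMIs in all. Unnamed cluster 9, with a like sum of upper follicle markers, held 16.5 CPM of Cyp2a5 and 17.9 CPM of Cyp2f2, from 12 and 13 UMIs. Thinned, 34.6% of Acomys upper follicle cells (29.3 to 40.2) had a UMI, against none of 184 Mus cells, which allows a share of cells with a UMI of up to 1.63% when 0 is bounded by 3 cells. In the Mus list Cyp2a5 has a near copy, Cyp2a4, which shares 12.4% of the 50-base windows of the last 500 bases of its longest coding transcript (GENCODE M21), and Cyp2a4, Cyp2a12 and Cyp2a22 had no UMI in Mus cells. No other member shared a window with another gene. These copies were absent from the Acomys list used here, so Acomys reads of a copy, if any, could be counted as Cyp2a5.

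Cyp2f2, an enzyme known from mouse airway club cells for turning naphthalene into a toxic epoxide (ENSMUSG00000052974, chr7:27119909-27133660, plus strand), followed the same class. Upper follicle cells held 217 CPM in Acomys and no UMI in Mus, at least 79.8-fold higher in Acomys. Sebocytes held 38.0 CPM in Acomys, against 2.13 CPM in Mus, and basal cells 24.4 CPM in Acomys, against 0.321 CPM in Mus, a ratio of 76.1 (37.9 to 179). Free RNA held 7.91 CPM in Acomys, from 6 UMIs, and no UMI in Mus. Barcodes of more than 100 and up to 500 UMIs held 23.1 CPM in Acomys (20.7 to 25.8) and 3.04 CPM in Mus. The Acomys basal interval (21.1 to 28.1) overlapped that of these Acomys barcodes, so basal Cyp2f2 was not read as above background. Whether such barcodes hold only free RNA was not tested. The fibroblast cluster held 72.7 CPM in Acomys, from 7 UMIs, and 49.8 CPM in Mus, the highest Mus cluster. The 19 Mus UMIs behind that value lay in 4 cells, 10 of them in a single cell.

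**Figure D3:**
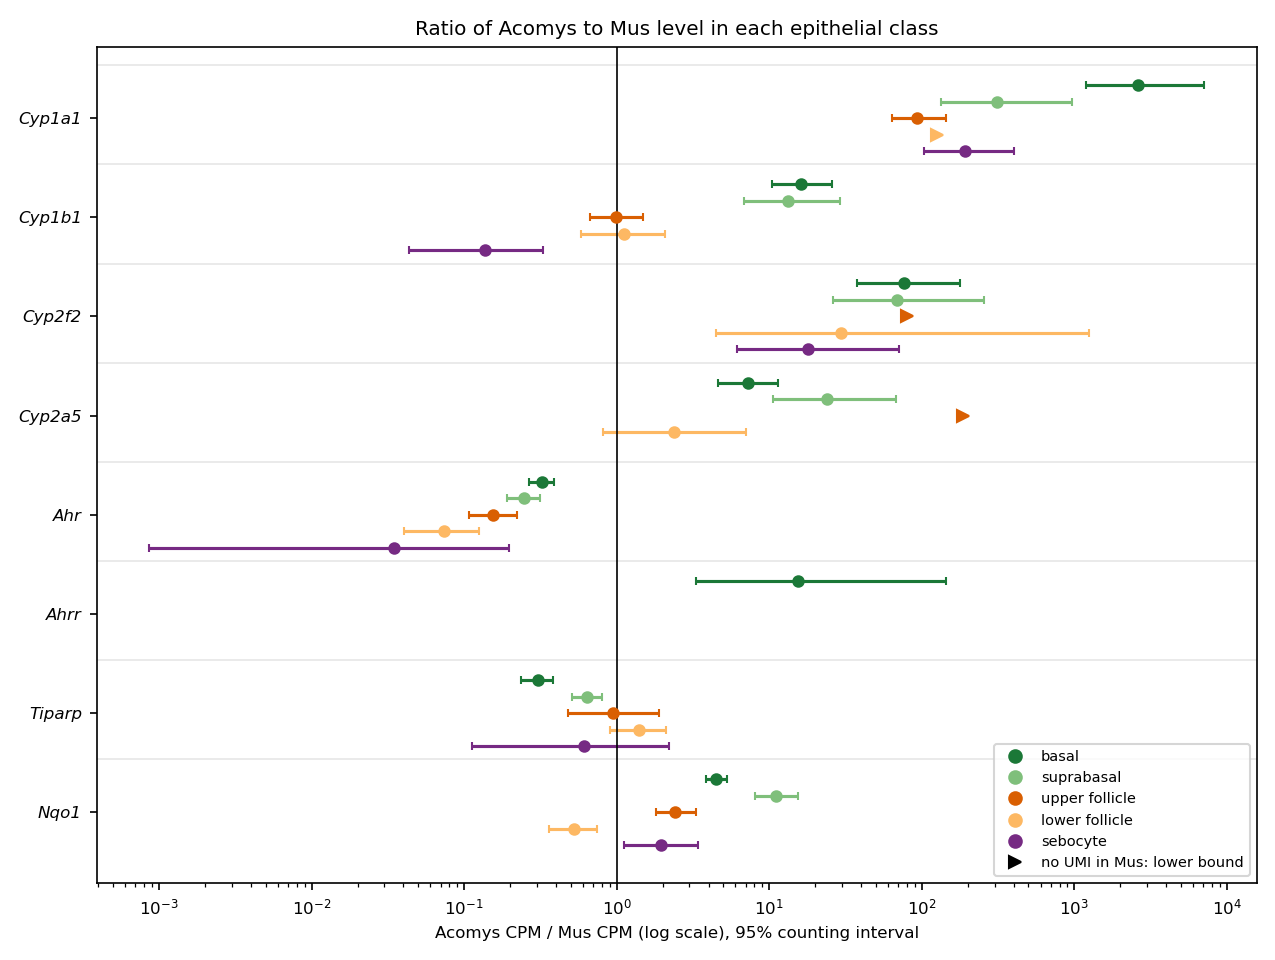
Ratio of Acomys to Mus level of each member (log scale) in the 5 classes, with 95% counting intervals; the vertical line is a ratio of 1, triangles are lower bounds where Mus had no UMI, and member and class pairs with under 4 UMIs or no bound are left out. The 3 P450 genes Cyp1a1, Cyp2f2 and Cyp2a5 lie right of the line where drawn, apart from the interval of Cyp2a5 in lower follicle cells, which crosses it, and Ahr lies left of it in each class.

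Ahr, the receptor itself (ENSMUSG00000019256, chr12:35497974-35535038, minus strand), went the other way and was lower in Acomys in each of the 5 classes. Over the epithelial classes it held 11.3 CPM in Acomys, against 47.3 CPM in Mus, a ratio of 0.239 (0.209 to 0.272). Lower follicle cells held 8.13 CPM in Acomys, against 110 CPM in Mus, a ratio of 0.0740 (0.0401 to 0.126). Upper follicle cells held 22.9 CPM in Acomys and 147 CPM in Mus (0.156), which at resolution 2 became 22.9 and 63.3 CPM. Basal cells held 15.1 and 47.1 CPM (0.321). Sebocytes held 1.52 CPM in Acomys, from 1 UMI, and 44.1 CPM in Mus, and with unnamed cluster 4 added they held 15.2 CPM in Acomys. Cluster 4 then gave most of the cells, and its 14 sebocyte markers summed to 1473 CPM, against 9126 CPM in the sebocyte class. Free RNA held 22.4 CPM in Acomys, against 51.6 CPM in Mus, a ratio of 0.434 (0.232 to 0.780), and barcodes of 11 to 100 UMIs 5.58 and 29.4 CPM. No Acomys cluster lay above the free RNA interval of 1 to 10 UMIs, 13.1 to 35.9 CPM from 17 UMIs. Mus upper follicle cells and lower follicle cluster 3, at 138 CPM, lay above the Mus one. Barcodes of more than 100 and up to 500 UMIs held 12.2 CPM in Acomys (10.4 to 14.2) and 36.6 CPM in Mus. The Acomys upper follicle interval (16.3 to 31.1) lay above that of these Acomys barcodes, so this contrast depends on the barcodes chosen. Within Mus the upper follicle was the highest class, 1.34-fold (1.11 to 1.61) above the lower follicle. Ahr is thus 1 of the 38.1% of genes at 10 CPM or more, 2855 of 7502, that were lower in Acomys by 2-fold or more. The Mus lower follicle level rested on cluster 3, since cluster 13 of the same class held 25.8 CPM (15.1 to 41.4).

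Ahrr, the receptor's repressor (ENSMUSG00000021575, chr13:74211118-74292331, minus strand), was near the floor, with 19 UMIs in all Acomys cells and 7 in all Mus cells, so no class order was read. Over the epithelial classes it held 12 UMIs in Acomys and 4 in Mus, a ratio of 6.76 (2.05 to 28.7). Free RNA held 1.32 CPM in Acomys, from 1 UMI, against 0.531 CPM in the Acomys epithelial classes. Tiparp, an ADP-ribosyltransferase that limits the receptor (ENSMUSG00000034640, chr3:65528410-65555518, plus strand), was lower in Acomys beyond counting error in basal and suprabasal cells, and in no other class. Basal cells held 9.92 CPM in Acomys, against 32.8 CPM in Mus, a ratio of 0.303 (0.237 to 0.381), and suprabasal cells 10.2 and 16.1 CPM, a ratio of 0.638 (0.506 to 0.799). In upper follicle cells it held 13.7 CPM in Acomys, against 14.5 CPM in Mus, in lower follicle cells 22.7 and 16.3 CPM, and in sebocytes 4.56 and 7.44 CPM, with intervals of each ratio that include 1. With unnamed cluster 4 added, sebocytes held 19.9 CPM in Acomys and 7.44 CPM in Mus, which turns the direction. Most of the Acomys cells then came from cluster 4, where sebocyte markers were low. At resolution 2 upper follicle cells held 13.3 and 29.7 CPM. Free RNA held 13.2 CPM in Acomys and 16.0 CPM in Mus, close to most of these values, while barcodes of 11 to 100 UMIs held 16.7 and 67.2 CPM.

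Nqo1, a quinone reductase driven by both the receptor and the antioxidant factor NRF2 (ENSMUSG00000003849, chr8:107388225-107403206, minus strand), was higher in Acomys in 4 classes and lower in the fifth. Basal cells held 49.1 CPM in Acomys, against 10.9 CPM in Mus, a ratio of 4.50 (3.85 to 5.27), and suprabasal cells 27.5 and 2.49 CPM, a ratio of 11.1 (8.11 to 15.3). Upper follicle cells held 130 CPM in Acomys, against 53.5 CPM in Mus, a ratio of 2.42 (1.81 to 3.29), and sebocytes 36.5 and 18.6 CPM, a ratio of 1.96 (1.12 to 3.39). With unnamed cluster 4 added, which then gave most of the cells, Acomys sebocytes held 71.8 CPM. Lower follicle cells held 23.2 CPM in Acomys, against 44.4 CPM in Mus, a ratio of 0.523 (0.360 to 0.743). That class joined unlike clusters in Mus: Nqo1 stood at 53.1 CPM in cluster 3 and 42.8 CPM in cluster 20, but at 12.2 CPM (5.25 to 24.0) in cluster 13, which shares the counted markers Lhx2, Sox9, Postn and Dkk3 with Acomys cluster 1 at 23.2 CPM. Free RNA held 48.8 CPM in Acomys (34.3 to 67.2) and 35.6 CPM in Mus (23.8 to 51.1). The Acomys basal and sebocyte levels were within the Acomys interval and the upper follicle level above it. The Acomys suprabasal (24.3 to 30.9) and lower follicle (16.6 to 31.6) intervals lay below it. In Mus the highest cluster was the endothelium at 130 CPM, and 11 of its 22 clusters were below the free RNA interval.

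Within the Acomys basal class, cells with a Cyp1a1 UMI after thinning (605 cells) also held more of other members than cells without one (876 cells), although they were shallower, at medians of 7133 and 8724 UMIs. Cyp2f2 stood at 49.0 CPM with and 10.0 CPM without, a ratio of 4.88 (3.53 to 6.86), and Cyp2a5 at 16.1 and 4.33 CPM, a ratio of 3.72. Nqo1 stood at 76.8 CPM with and 32.8 CPM without, a ratio of 2.34 (1.91 to 2.87), Tiparp at 16.1 and 6.29 CPM, and Cyp1b1 at 24.2 and 11.6 CPM. Ahr stood at 17.4 CPM with and 13.8 CPM without, a ratio of 1.27 (0.868 to 1.84). The split runs partly along clusters, since cluster 2 held 425 of the 605 cells. Inside cluster 2 the ratio of Nqo1 was 1.38 (0.951 to 2.06) and that of Cyp2f2 2.15 (1.34 to 3.64), while that of Tiparp was 12.0 (2.02 to 488), with 36 UMIs in cells with a Cyp1a1 UMI and 1 in cells without. In basal cluster 3, Cyp2f2 and Cyp2a5 had no UMI in the 50 cells with Cyp1a1, and 9 and 6 UMIs in the 397 cells without. In upper follicle cells, 276 with and 33 without, Cyp2f2 stood at 236 and 58.7 CPM and Cyp2a5 at 531 and 294 CPM. Nqo1 stood there at 130 and 128 CPM, Cyp1b1 at 39.7 and 37.4 CPM, and Tiparp at 12.8 and 21.4 CPM, from 20 and 4 UMIs. In suprabasal cells, 145 with and 978 without, the ratio of Cyp2a5 was 4.64 (2.82 to 7.53) and that of Nqo1 1.60 (1.15 to 2.19). Those of Cyp2f2 at 0.622, Tiparp at 0.890, Cyp1b1 at 1.25 and Ahr at 0.885 had intervals that include 1. Suprabasal Cyp1a1 at 80.7 CPM and Cyp2a5 at 7.48 CPM lay below their free RNA levels of 318 and 23.7 CPM. Cyp2a5 did so in basal cells too, at 8.68 CPM. No joint expression of Cyp1a1 and Cyp2a5 was therefore read in these 2 classes. All cells of 1 library share its free RNA, so these are descriptions of 1 sample.

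**Figure D4:**
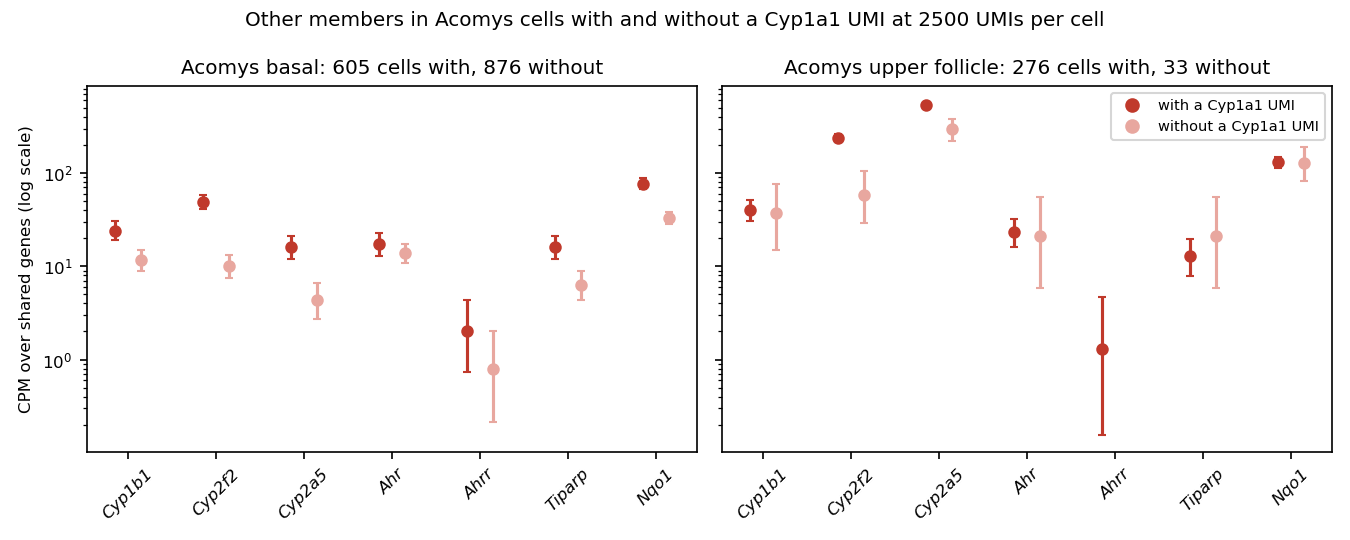
Level of the other members (CPM over shared genes, log scale) in Acomys basal cells, left, and upper follicle cells, right, with a Cyp1a1 UMI after thinning to 2500 UMIs (dark, left) and without one (pale, right), with 95% counting intervals. In basal cells the dark points lie above the pale ones by 4.88-fold for Cyp2f2 and 2.34-fold for Nqo1, and the intervals for Ahr overlap.

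Genes most like each member were ranked by Pearson's r of log2 levels over clusters, a description in which clusters share 1 library. Over the 24 Acomys clusters Cyp1a1 was followed by Gsta3, a glutathione transferase (r = 0.951), Akr1c18, an aldo-keto reductase (r = 0.941), and Pgd, an enzyme of the pentose phosphate pathway (r = 0.915). Nqo1 was followed by Nfe2l2, which encodes NRF2 (r = 0.849), and Cyp2a5 by the follicle keratin Krt79 (r = 0.733). Over the 22 Mus clusters Ahr was followed by Gstm1 (r = 0.761), and Cyp1b1 by Acsl4 (r = 0.924). The Acomys genes most like Cyp1b1 and Ahr peaked in an unnamed cluster of 37 cells and were replaced when small clusters were left out.

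Other genes of the pathway were read from lists chosen with earlier results known, among genes at 10 CPM in either library. In upper follicle cells 17.3% of all genes tested were higher in Acomys by 2-fold or more and 36.9% lower. Of 16 NRF2 targets there, 11 were higher and 2 lower, with a median log2 ratio of 1.62 against -0.28 over all genes. Gpx2, a glutathione peroxidase, stood at 3291 CPM in Acomys, against 111 CPM in Mus, and Pgd at 419 and 40.8 CPM. Gsr, the glutathione reductase, was among the lower ones, at 3.43 CPM in Acomys, against 48.1 CPM in Mus. In basal cells, where the shares of all genes were 14.8% and 37%, 9 of 15 NRF2 targets were higher and 1 lower. In suprabasal cells, with 14.1% and 38.5%, 4 of 16 were higher and 2 lower. Lower follicle cells (17.3% and 37.1%) had 4 of 14 higher and 2 lower, and sebocytes (12.6% and 45.1%) 7 of 16 higher and 2 lower.

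The receptor's other targets went in both directions. In basal cells 2 of 8 were higher and 4 lower in Acomys, with a median log2 ratio of -1.10, against 14.8% and 37% of all genes tested and a median of -0.38. In upper follicle cells 3 of 7 were higher and 2 lower, with a median of 0.0063. All genes tested there gave 17.3% and 36.9%, with a median of -0.28. Aldh3a1, an aldehyde dehydrogenase and classic receptor target, stood in upper follicle cells at 14301 CPM in Acomys, against 670 CPM in Mus, and in basal cells at 7293 and 221 CPM. Nfe2l2 stood in basal cells at 433 CPM in Acomys, against 114 CPM in Mus. Ovol1, a keratinocyte factor downstream of the receptor, stood in basal cells at 1.74 CPM in Acomys, against 28.2 CPM in Mus, and Serpinb2 at 94.1 and 889 CPM. Of the receptor's partners, Arnt stood in basal cells at 0.992 CPM in Acomys, from 8 UMIs, and 12.5 CPM in Mus, while the chaperone Hsp90aa1 stood at 605 and 257 CPM. Of 9 P450 partners in basal cells, most of which carry electrons to the enzymes, 3 were higher and 4 lower, with Cyb5r3 at 13.1 CPM in Acomys, against 508 CPM in Mus. None of the 12 shared enzymes that make or break tryptophan ligands reached 10 CPM in basal, suprabasal or upper follicle cells. In lower follicle cells and in sebocytes 1 each did and was higher in Acomys by 2-fold or more, and the size of the ratio was not read. Of all genes tested there, 17.3% and 12.6% were higher in Acomys by 2-fold or more.

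The remaining P450 genes split in both directions. The Acomys list named 47 P450 symbols and the Mus list 94, with 46 in both. Among 13 others at 10 CPM in upper follicle cells, 7 were higher and 5 lower in Acomys, against 17.3% and 36.9% of all genes tested, with a median log2 ratio of 2.43. Sebocytes had 6 of 10 higher and 3 lower (12.6% and 45.1% of all genes), with a median of 2.16, against -0.77 over all genes. Elsewhere the medians were negative, as were those of all genes. Basal cells had -1.37 against -0.38, with 7 of 15 higher and 8 lower (14.8% and 37% of all genes). Suprabasal cells had -1.63 against -0.47, with 5 of 14 higher and 7 lower (14.1% and 38.5%). Lower follicle cells had -2.18 against -0.31, with 5 of 15 higher and 9 lower (17.3% and 37.1%). Cyp26a1, which breaks down retinoic acid, stood in upper follicle cells at 99.5 CPM in Acomys and no UMI in Mus, at least 36.5-fold higher in Acomys, and Cyp2b19, a keratinocyte enzyme, at 106 and 19.1 CPM. Cyp4b1 stood at 22.3 CPM in Acomys, against 321 CPM in Mus, Cyp3a13 at 12.6 and 135 CPM, and Cyp27a1, a sterol hydroxylase, at 1.14 and 109 CPM.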

How the data were processed

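Raw UMI counts per gene and barcode were deposited by the authors for 1 Acomys and 1 Mus library. Per the submitters' processing notes, Cell Ranger 2.2.0 and the build mm10 were used, and no source used here names the Acomys annotation. The members and gene lists were chosen with earlier results of these data known. The group labels came from the sample titles.

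Barcodes with at least 0.1 of the 99th percentile of the 3000 largest totals, 200 genes and at most 20% mitochondrial UMIs were kept, and 183 Acomys and 386 Mus doublets, called by simulated doublets at 0.8% per 1000 cells, were removed. Cells were clustered in scanpy 1.11.5 with leidenalg 0.10.2 (2000 variable genes without the members, 30 components, 20 neighbours, resolution 1), giving 24 Acomys and 22 Mus clusters. A marker counted when at least 20% of a cluster's cells held it and its level was 1.5 times that of other clusters on average, and naming needed 3 counted markers and no lead by another type among the 10 leading genes. CPM were taken over 15688 shared symbols, which held 66.9% of Acomys and 62.1% of Mus cell UMIs.

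Intervals are exact Poisson for CPM, exact conditional binomial for ratios and Clopper-Pearson for shares (95%), and cover counting error only. A count of 0 was bounded by 3 UMIs in the class, and a share of 0 by 3 cells. The ratio code was tested on simulated data. Genes were named if they led a list in level or ratio by a set rule (4 a list). With 1 library per species no test across samples and no p-value was possible. Alternatives were the UMI minimum, doublets, resolution, members in the clustering, unnamed clusters, the CPM denominator, free RNA subtraction, means over cells, cycling clusters, thinning and deeper free RNA barcodes.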

Additional observations from a re-analysis of the deposited data

Results flagged for a closer look

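The libraries lay on opposite sides of each other in different classes for 2 members, each beyond counting error, and the difference between classes was not tested. Cyp1b1 had ratios of Acomys to Mus CPM of 16.2 in basal and 13.3 in suprabasal cells, against 0.136 in sebocytes. Its Acomys levels in these classes lay within the Acomys free RNA interval of 2.90 to 17.2 CPM. Nqo1 had ratios of 4.50 in basal, 11.1 in suprabasal, 2.42 in upper follicle and 1.96 in sebocyte cells, against 0.523 in lower follicle cells. Its Acomys suprabasal and lower follicle levels lay below the Acomys free RNA interval of 34.3 to 67.2 CPM, and its basal and sebocyte levels within it. The Acomys lower follicle class came from clusters 1 and 16 and the Mus one from clusters 3, 13 and 20, where Nqo1 stood at 53.1, 12.2 and 42.8 CPM, so that the lower follicle direction rests on clusters 3 and 20. The median depths of the classes were 3671 and 7530 UMIs per cell. With 1 library in each group, no sample could be set against others of its group.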

How the results depend on the processing

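The 51 member ratios were recomputed under 12 alternatives, and none of the 605 values changed direction among ratios whose counting interval excluded 1. Of these values, 564 stayed within the main counting interval and 41 moved beyond it. The log2 ratio of Cyp1a1 over the epithelial classes (8.98) stayed within it throughout. The log2 ratio of Ahr (-2.06) became -1.78 with a minimum of 500 UMIs, -1.86 with the members kept in the clustering and -2.30 as a mean over cells. Cyp1a1 in Acomys upper follicle cells (2124 CPM) became 1638 CPM with a minimum of 1000 UMIs, 1480 CPM with 500 UMIs, 1976 CPM without doublet removal, 2004 CPM at resolution 2, 1472 CPM over all genes, 2689 CPM without ribosomal protein genes, 2325 CPM with 10% free RNA subtracted and 2293 CPM as a mean over cells, and the cause was not tested. With 10% free RNA subtracted, Mus suprabasal Cyp1b1 and Nqo1 came to 0, so no finite ratio was read there. The count of 11 NRF2 targets stayed within 1.5 times where it could be recomputed. At resolution 0.5 no Acomys upper follicle class was named, so it gave no value. Leaving out clusters under 50 cells, an alternative chosen after seeing the data, kept Gsta3 and Akr1c18 among the 3 genes most like Cyp1a1, with r = 0.953 and 0.961. No paired analysis was possible because each species has 1 library, and no library could be left out. Counts were low for Ahrr in all classes and for Cyp2a5 and Cyp2f2 in Mus, with 47 and 39 UMIs over all Mus cells.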

Other observations

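Enzymes that conjugate or reduce foreign compounds were read as a list of their own, which shares Gstm1 with the NRF2 targets. Of 20 at 10 CPM in basal cells 10 were at least 2-fold higher and 6 lower in Acomys, against 14.8% and 37% of all genes tested. Adh7, an alcohol dehydrogenase, stood in upper follicle cells at 6759 CPM in Acomys, against 155 CPM in Mus, and Akr1c18 at 4962 and 257 CPM. The flavin monooxygenase Fmo5 stood at 6.29 CPM in Acomys, against 424 CPM in Mus, and the glutathione transferase Mgst1 at 122 and 676 CPM.

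Cyp2b10 was listed for Mus, where upper follicle cells held 259 CPM over 286 UMIs, and was not in the Acomys list used here, so no ratio was given. Mgst2 was in both lists and had no UMI in Acomys basal cells, at least 94.7-fold lower than the 35.2 CPM of Mus ones.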
